A study of Mus musculus with 3 samples.

Results

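The cytosolic ribosomal protein genes of the mouse were followed across 3 expression arrays of whole embryos that lack small Maf transcription factors. Members were the genes whose symbol, found through the probe's accession, starts with Rpl or Rps and a number (kinases of the Rps6k family left out), with Rpsa and the stalk genes Rplp0, Rplp1 and Rplp2. The rule found 84 symbols with 121 probes on the array, and 83 of them were above background on at least 1 array, of 13184 genes above background in all. These 83 were the 46 core genes of the large subunit, the 31 core genes of the small subunit, 5 paralogues (Rpl22l1, Rpl36al, Rpl39l, Rpl7l1 and Rps27l) and Rps19bp1. Rps19bp1 encodes a protein that binds Rps19 and is not part of the ribosome, so the rule took it by its spelling alone. The gene not above background was Rpl3l, a paralogue of Rpl3 known from skeletal and heart muscle. The rule itself uses gene symbols and no measured value.

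Each array held Cy3-labelled, amplified RNA from a pool of 3 whole embryos of mixed genetic background. The triple null pool was MafF-/-:MafG-/-:MafK-/- at embryonic day E10.5, and the 2 other pools, here called MafG-intact, were MafF-/-:MafG+/+:MafK-/-, of stage E10.5 in one and of stage E9.5 in the other. All groups therefore lacked MafF and MafK, and they differed in MafG, in stage or in both. Since each group is a single array, replicate error is unknown, no test was run, and precision is limited by the number of arrays. "Higher" and "lower" describe these arrays only.

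The ribosome is built of a large and a small subunit, each an RNA core covered by proteins that are mostly needed in equal numbers, and the genes for these proteins are known to be expressed together. Their mRNAs start with a run of pyrimidines, the 5′TOP, through which mTOR signalling sets how well they are translated, and Myc is known to raise their transcription together with that of the factors that assemble ribosomes. In the embryo, the mutation of a single ribosomal protein gene can disturb blood formation and the skeleton while other tissues are less affected.

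Signals are given as levels, the log2 intensity minus the 75th percentile of the array, and a difference is the level on one array minus that on another. That percentile was an intensity of 1078 for the triple null pool, 1420 for the MafG-intact E10.5 pool and 1064 for the MafG-intact E9.5 pool. Of all probes, 69.2%, 70.4% and 69.1% were well above background in the same order of arrays, and 0 spots were saturated. The signal of Mafg, the targeted gene, did not clear background in the triple null pool. It was lower there by at least 173-fold relative to MafG-intact embryos of E10.5, and by at least 253-fold relative to those of E9.5. The tissue label fitted the markers, with 8 of 8 neuronal, 8 of 8 erythroid and 5 of 5 cardiac muscle genes above background. Markers of cell types and of sex differed between the pools. The summed level of the neuronal markers was 3.21 in the triple null pool, 5.35 in the MafG-intact E10.5 pool and 3.25 in the MafG-intact E9.5 pool, and that of the cardiac markers was 6.73, 5.73 and 6.32 in the same order. The MafG-intact E10.5 pool alone had signal for Xist and none above background for Uty, Kdm5d, Eif2s3y and Ddx3y on the Y chromosome, which both other pools had.

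Ribosomal protein probes were among the brightest on the array. Of the 412 brightest probes, member probes were 86 (20.9%) for the triple null pool, 85 (20.6%) for the MafG-intact E10.5 pool and 86 (20.9%) for the MafG-intact E9.5 pool. Summed over the 121 member probes, their signal was 11.5% of all signal in the triple null pool, 10.4% in the MafG-intact E10.5 pool and 11.4% in the MafG-intact E9.5 pool. The large subunit's probes took 6.36%, 5.80% and 6.30% and the small subunit's 4.92%, 4.46% and 4.88% of the signal on the same arrays. The share was lowest on the MafG-intact E10.5 array for both subunits. Before scaling, the median member probe intensity was 116260 for triple null, 129747 for MafG-intact E10.5 and 108494 for MafG-intact E9.5. The unscaled signal was thus highest on the MafG-intact E10.5 array, whose 75th percentile was also the highest. Lower member levels on that array, given below, are relative to that percentile. The highest member probe intensity was 372200 on the triple null array, against a saturation value of 659150.

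The first comparison set the triple null pool against the MafG-intact pool of the same stage, E10.5, all embryos without MafF and MafK. The pools differed in MafG and in the sex markers, and these cannot be told apart. Ribosomal protein genes were slightly and evenly higher in the triple null pool. The median difference of the 83 members was 0.26 on the log2 scale, with an interquartile range from 0.19 to 0.31, against a median of 0.06 over 12529 genes above background on both arrays. Of the 83 members, 80 were higher in the triple null pool, against 58.4% of all genes, and 3 were lower, against 41.6% of all genes. The size of the differences was small: 1 of 83 members, Rpl39l, was at least 1.5-fold apart (log2 0.585), against 13.8% of all genes, and it was also at least 2-fold apart, against 5.45% of all genes. At least 0.32 apart on the log2 scale were 18 of 83, against 32.4% of all genes. In RNA from whole embryos, more cells of a type and more RNA per cell cannot be told apart.

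The size of this shift depended on how the arrays were scaled. Quantile normalization, which gives every array the same distribution of intensities, left a median of 0.0396 over the members and 0.0485 over all genes, so the excess over all genes was gone (-0.00886), and 56 of 83 members were higher, beside 57.6% of all genes. Member probes were 20.9% of the 412 brightest probes of the triple null array. Making the arrays equal at the bright end can itself remove a shift that bright genes share. Centring the differences among genes of like level, so that a member is set against other bright genes, left a median of 0.139, with 77 of 83 members higher in the triple null pool. Values below are those of the 75th percentile scaling unless another is named, and relative to all genes their direction in the first comparison turned under quantile normalization.

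**Figure D1:**
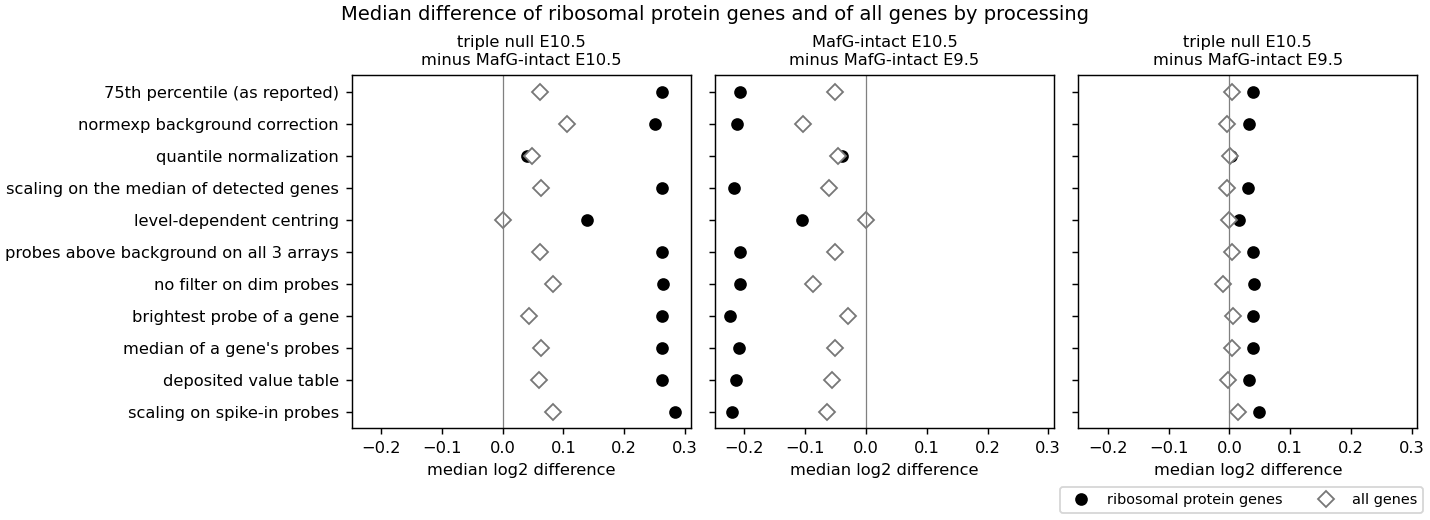
Median log2 difference of the 83 ribosomal protein genes (filled points; 84 without the filter on dim probes) and of all genes (open diamonds) in the 3 comparisons, for 11 ways of processing. Under quantile normalization the members' median in the first comparison was 0.0396, beside 0.0485 for all genes, while all other ways left the members' median above that of all genes.

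Large and small subunit did not separate. The median difference in the first comparison was 0.27 over the 46 large subunit genes (SD over genes 0.098) and 0.26 over the 31 small subunit genes (SD over genes 0.099), and these medians were 0.0024 apart. In the large subunit 45 of 46 genes were higher in the triple null pool, and in the small subunit 30 of 31. The SD was 0.098 over the 77 core genes, 0.25 over all 83 members, which include Rpl39l, and 0.51 over all genes. It was 0.11 over 35 translation initiation and elongation factors, 0.13 over 76 mitochondrial ribosomal proteins and 0.36 over 42 ribosome biogenesis genes. A small SD was thus not particular to the ribosomal protein genes. The error of a difference that the scanner software gives had a median of 0.204. It was 0.204 alike for genes with 1 probe as far apart in level as Rpl14 and Rpl8. It therefore does not measure how a given gene varies and gives no scale for the SD over genes. For 18 of the 83 members the difference was smaller than the software's error.

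**Figure D2:**
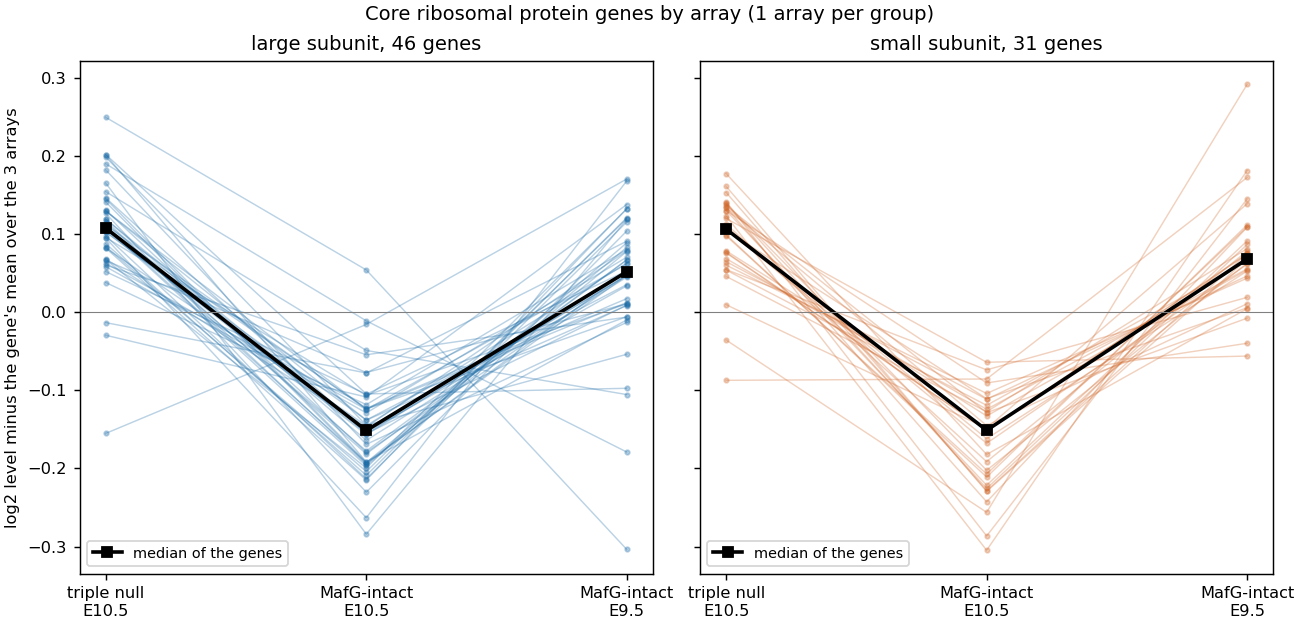
Log2 level of each core ribosomal protein gene minus its own mean over the 3 arrays (vertical axis), by array, for the 46 large subunit genes (left panel) and the 31 small subunit genes (right panel); thin lines are genes and the black line their median, with 1 array per group. In both panels most genes are lowest on the MafG-intact E10.5 array, which held the lowest level of 77 of the 83 members.

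The highest differences belonged to Rpl4, Rps3a1 and Rps12. Rpl4, which lines the tunnel through which the new protein leaves, had a level of 4.40 in the triple null pool, 3.95 in the MafG-intact E10.5 pool and 4.35 in the MafG-intact E9.5 pool, a difference of 0.45 in the first comparison. Rps3a1, a protein of the small subunit's platform, had levels of 5.96, 5.54 and 6.02 in the same pools, a difference of 0.43. Rps12, in the head of the small subunit, had levels of 7.06, 6.63 and 7.06, a difference of 0.43. In all 3 genes the MafG-intact E10.5 array stood alone as the low one, and the other arrays lay within 0.06 of each other. The difference in the first comparison stayed above 0 under quantile normalization for Rpl4 (0.363), Rps3a1 (0.248) and Rps12 (0.149). The 2 probes of Rps3a1 gave 0.59 and 0.26, and Rpl4 and Rps12 had 1 probe each.

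At the other end stood Rpl39l, Rpl37 and Rpsa, the 3 members that were not higher in the triple null pool. Rpl39l, a paralogue of Rpl39 known from male germ cells, had a level of -6.22 in the triple null pool, -4.37 in the MafG-intact E10.5 pool and -5.43 in the MafG-intact E9.5 pool. Against the MafG-intact E10.5 pool it was 3.61-fold lower in triple null embryos, on 1 probe near background, and a second probe was above background on no array. Its difference was -1.85, and it was -0.341 after normexp background correction and -0.871 with both probes. Rpl37, a small zinc-binding protein of the large subunit, had levels of 1.62, 1.76 and 1.95 in the triple null, the MafG-intact E10.5 and the MafG-intact E9.5 pools, and these average 2 probes that disagree. Its bright probe had levels of 6.13, 6.60 and 6.84 and a first difference of -0.47, and its dim probe had levels of -2.88, -3.07 and -2.94 and a first difference of 0.19. Rpsa, a small subunit protein also known as a laminin receptor, had levels of 3.13, 3.13 and 3.39. Its bright probe gave -0.22 and its dim probe 0.21, so Rpsa also rests on probes of opposite sign.

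The promoter windows of these 6 genes are shown because they are the members with the 3 highest and the 3 lowest differences between the triple null and the MafG-intact E10.5 pool. Each runs from 60 bases before the annotated start to 30 bases from it, 5′ to 3′ on the gene's strand, from RefSeq promoters of GRCm38.p6. Capitals mark matches to CGGAAG (the core of ETS family sites), TCTTTCC or CTTTTCC, or a run of 7 or more C and T within 30 bases of the start. The windows are chr9:64173327-64173416 on the plus strand for Rpl4, chr3:86142639-86142728 on the minus strand for Rps3a1, chr10:23787180-23787269 on the minus strand for Rps12, chr16:10170168-10170257 on the plus strand for Rpl39l, chr15:5116553-5116642 on the plus strand for Rpl37 and chr9:120127706-120127795 on the plus strand for Rpsa.
Rpl4: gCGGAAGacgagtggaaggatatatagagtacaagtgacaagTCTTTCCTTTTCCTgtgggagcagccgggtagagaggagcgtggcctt
Rps3a1: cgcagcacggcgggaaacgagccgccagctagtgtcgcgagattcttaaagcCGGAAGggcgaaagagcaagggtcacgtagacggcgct
Rps12: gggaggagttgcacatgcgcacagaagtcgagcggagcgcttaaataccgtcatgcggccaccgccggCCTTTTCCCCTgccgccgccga
Rpl39l: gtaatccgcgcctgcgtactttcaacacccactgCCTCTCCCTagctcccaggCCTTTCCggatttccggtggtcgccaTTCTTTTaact
Rpl37: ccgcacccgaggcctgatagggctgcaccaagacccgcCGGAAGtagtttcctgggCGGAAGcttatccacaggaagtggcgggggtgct
Rpsa: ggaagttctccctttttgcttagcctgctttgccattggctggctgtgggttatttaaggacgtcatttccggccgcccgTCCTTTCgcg
Both kinds of gene held such letters. Rpl4 had CGGAAG and a long pyrimidine run that holds TCTTTCC and CTTTTCC, Rps3a1 had CGGAAG without a run, and Rpl37, at the low end, had CGGAAG at 2 places.

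Over the members as a whole, the promoters held these motifs more often than promoters at large. Promoters, from 250 bases before to 50 after the start, were on hand for 64 of the 84 members, 76 promoters in all, because some genes have several. CGGAAG on either strand was in 47 of 76 (61.8%), against 16.9% of 32851 promoters. A run of 7 or more C and T within 30 bases of the start, on the gene's strand, was in 45 of 76 (59.2%), against 33.8%. AAGATGG on either strand, the core of YY1 sites, was in 12 of 76 (15.8%), against 6.34%, and TATAAA on either strand was in 7 of 76 (9.21%), against 13.6%. TCTTTCC and CTTTTCC are themselves runs of 7 pyrimidines and overlap the run where they lie near the start. On the gene's strand TCTTTCC was in 13 of 76 (17.1%), against 4.20%, and CTTTTCC was in 10 of 76 (13.2%), against 3.91%.

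TCTTTCC was spread unevenly between the subunits. On the gene's strand it was in promoters of 11 of 34 large subunit genes (Rpl4, Rpl6, Rpl10a, Rpl11, Rpl18, Rpl19, Rpl26, Rpl28, Rpl35a, Rpl36a and Rpl38) and of 0 of 23 small subunit genes, and on either strand it was in 12 of 34 and 2 of 23. This count was picked out after the motifs were seen and has no test. Genes with and without these motifs had like medians in the first comparison. The median difference was 0.262 over 11 core genes with TCTTTCC and 0.273 over 46 without, 0.267 over 40 with CGGAAG and 0.296 over 17 without, and 0.265 over 39 with a pyrimidine run near the start and 0.292 over 18 without. A match is a description of the letters and not of a bound factor.

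Between the ends lay a narrow band. Of the large subunit, 8 genes were higher in the triple null pool by at least 0.32 (log2): Rpl4, Rplp1, Rplp0, Rpl5, Rpl10a, Rpl31, Rpl9 and Rpl26. Of the small subunit it was 9 genes, among them Rps3a1, Rps12, Rps18, Rps2 and Rps7. These 17 of 83 stand against 15.6% of all genes at the same threshold, and 1 member, Rpl39l, was lower by at least as much, against 16.8% of all genes. Rps18, where the subunits touch, had levels of 8.01 in the triple null pool, 7.62 in the MafG-intact E10.5 pool and 7.92 in the MafG-intact E9.5 pool, a first difference of 0.39. The lowest core genes that were still higher in the triple null pool were Rpl27a, with levels of 4.81, 4.75 and 4.92 and a first difference of 0.06, and Rpl29, with levels of 3.74, 3.66 and 3.91 and a first difference of 0.08 over 4 probes that ranged from -0.05 to 0.20.

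**Figure D3:**
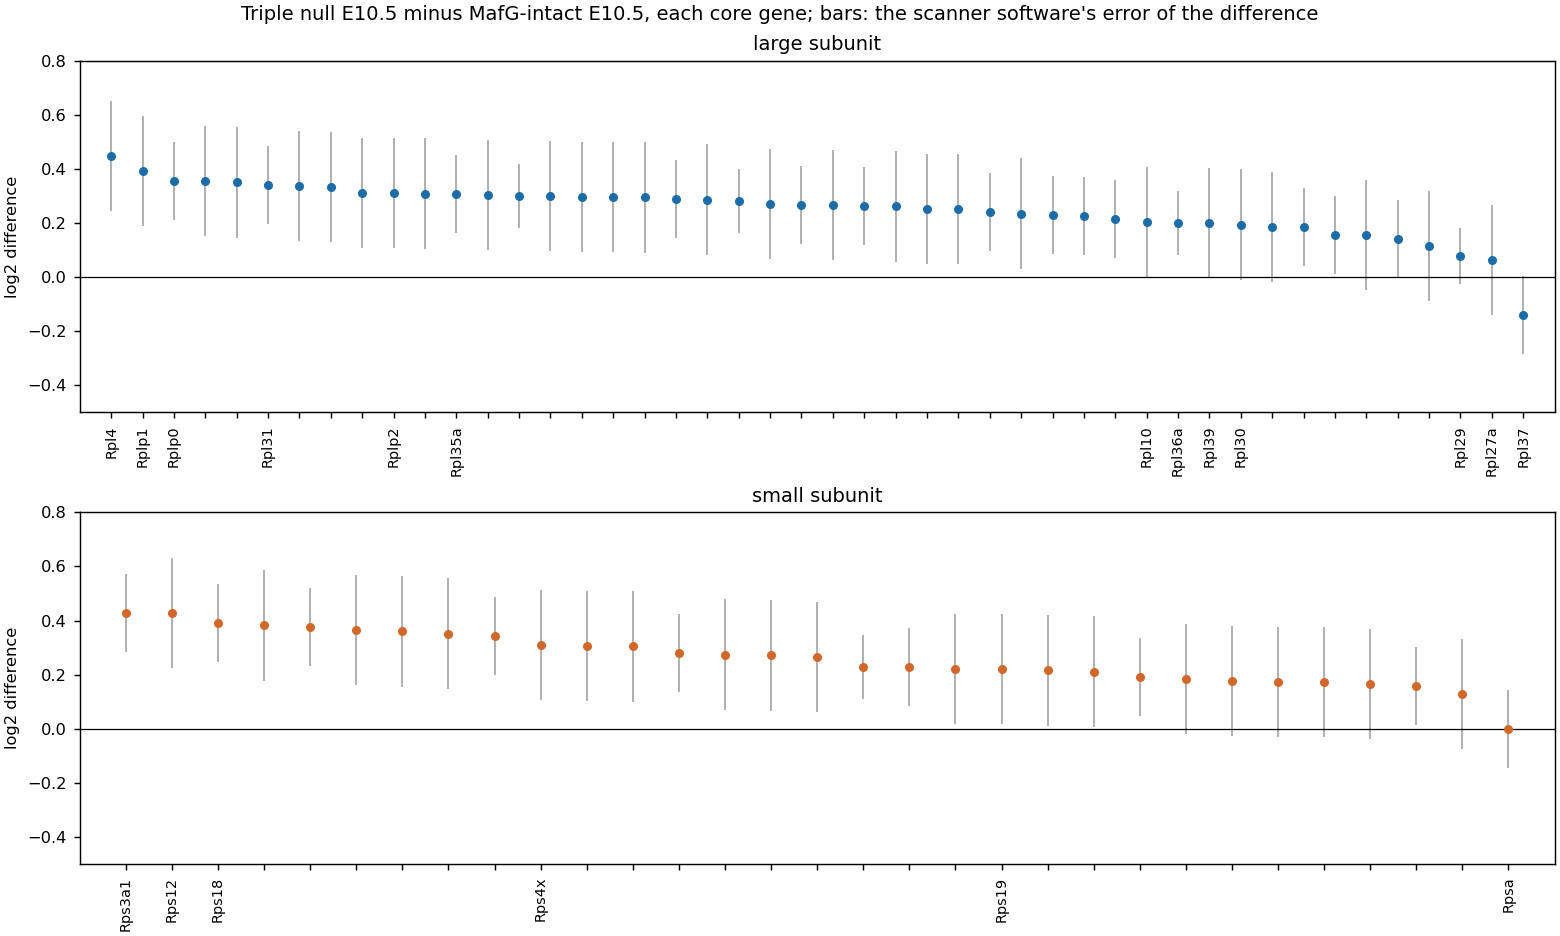
Log2 difference, triple null E10.5 minus MafG-intact E10.5 (vertical axis), of each core gene, sorted within the large subunit (top, 46 genes) and the small subunit (bottom, 31 genes); bars are the scanner software's error of the difference and hold no replicate. The axis names the genes described by rule in the text. All but Rpl37 and Rpsa lie above 0, Rpl4 is highest at 0.45 and Rpl37 lowest at -0.14.

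By place in the ribosome, the stalk genes had the highest median of the groups taken here. The stalk recruits the factors that drive translation. Rplp0, its base, had levels of 7.30 in the triple null pool, 6.95 in the MafG-intact E10.5 pool and 7.38 in the MafG-intact E9.5 pool. Rplp1 had 7.72, 7.33 and 7.51, and its partner Rplp2 had 7.62, 7.31 and 7.64, in the same pools. Rpl12, at the stalk's foot, had 7.39, 7.09 and 7.44. All 4 were lowest on the MafG-intact E10.5 array, their median first difference was 0.33, and under quantile normalization it was 0.109. Rpl5 and Rpl11 bind the 5S ribosomal RNA and, when free, hold the p53 inhibitor Mdm2. Rpl5 had levels of 7.87, 7.52 and 7.85 and a first difference of 0.36, and Rpl11 had 7.01, 6.85 and 7.05 and a first difference of 0.16. The 8 genes at the rim of the exit tunnel had a median of 0.25, the 14 genes of the small subunit's head 0.22 and the 17 of its body and platform 0.27. Among the body genes, Rps6, the target of the S6 kinases, had levels of 6.09, 5.83 and 5.95 and a first difference of 0.26.

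Genes whose human counterparts are mutated in Diamond-Blackfan anaemia, a failure of red cell formation, had values like those of the other members. Of the 9 such genes taken here, among them Rps19, Rps7, Rpl5, Rpl11 and Rpl35a, 9 were higher in triple null embryos of the first comparison, and their median difference was 0.22, beside 0.26 for all members. The erythroid markers moved the other way, with a summed level of 8.43 in the triple null pool, 9.24 in the MafG-intact E10.5 pool and 8.68 in the MafG-intact E9.5 pool and a median first difference of -1.17 over 8 genes. Whether the number of red cells bears on the ribosomal protein signal was not tested.

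In the first comparison the paralogues other than Rpl39l kept near their parents. Rpl22l1 had levels of 5.98 in the triple null pool, 5.80 in the MafG-intact E10.5 pool and 5.90 in the MafG-intact E9.5 pool, a first difference of 0.18, beside 0.26 for Rpl22. Rps27l had 6.04, 5.79 and 5.95, a first difference of 0.26, beside 0.21 for Rps27. Rpl36al had 4.88, 4.61 and 4.98, a first difference of 0.27, beside 0.20 for the X-linked Rpl36a. These 2 lay farther apart in the second comparison (-0.37 and -0.12) and on opposite sides of 0 in the third (-0.10 and 0.08). Rpl7l1 had 2.03, 1.84 and 2.08, a first difference of 0.19, beside 0.28 for Rpl7. Rps19bp1 had 3.85, 3.59 and 3.90, a first difference of 0.26. Each of these 5 was lowest on the MafG-intact E10.5 array. The reference lists 309 ribosomal protein pseudogenes by the same spelling, and near-identical copies could add signal to a parent's probe.

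Genes with several probes gave a check within each array. Of 30 members with at least 2 probes above background, 27 had all probes on the same side of 0 in the first comparison, 26 in the second and 16 in the third. The median distance between the probes' differences was 0.11, 0.11 and 0.10 in these comparisons. The widest distances were 0.66, 0.51 and 0.77. Probes at least 1.5-fold apart on opposite sides belonged to Rpl37 and to Rpl31, a protein at the exit tunnel whose 2 probes gave -0.13 and 0.63 in the third comparison. Spots of probes printed 10 times varied at levels of 4 or more with a median SD of 0.055 for the triple null pool, 0.047 for the MafG-intact E10.5 pool and 0.059 for the MafG-intact E9.5 pool, an error of printing and scanning that leaves out the embryos.

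The second comparison set the MafG-intact pool of E10.5 against that of E9.5, a day of development apart with MafG present. The sex markers differed as well, and stage and sex cannot be told apart. Ribosomal protein genes were lower at E10.5. The median difference was -0.21 over the 83 members (interquartile range -0.29 to -0.16), against -0.05 over 12514 genes. Of the members 79 were lower at E10.5, against 57.2% of all genes, and 4 were higher, against 42.8%. At least 1.5-fold apart was 1 of 83, Rpl39l, against 13.6% of all genes, and it was also at least 2-fold apart, against 5.19%. At least 0.32 apart on the log2 scale were 16 members, against 32.7%: 14 were lower, against 15.8%, and 2 higher, against 16.9%. Under quantile normalization the members' median was -0.039 and that of all genes -0.0464, and 57 of 83 members were lower at E10.5, beside 56.2% of all genes.

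The second comparison shares the MafG-intact E10.5 array with the first, so a low signal on that one array enters both, with opposite signs. Lowest on that array were 77 of 83 members, against 50.2% of the 12429 genes above background on all 3 arrays. The exceptions were Rpl10, Rpl30, Rpl37, Rpl39, Rpl39l and Rpsa. The highest level of a member was that of the triple null pool for 57, of the MafG-intact E10.5 pool for 1 and of the MafG-intact E9.5 pool for 25.

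In the second comparison the subunits had medians of -0.20 for the large subunit and -0.23 for the small one, and 43 of 46 and 31 of 31 genes were lower at E10.5. The largest difference among core genes was that of Rps19, which is needed to mature the small subunit's RNA and is the gene most often mutated in Diamond-Blackfan anaemia. Its level was 3.90 in the MafG-intact E10.5 pool and 4.45 in the MafG-intact E9.5 pool, 1.46-fold lower at E10.5, and 4.12 in the triple null pool. The difference was -0.55 on 1 probe, and -0.490 under quantile normalization. In members with several probes, the probes of a gene lay up to 0.51 apart in this comparison. Next came Rps3a1 (-0.49), Rps12 (-0.43), Rplp0 (-0.43) and Rpl4 (-0.40), 3 of which also led the first comparison, with which the low array is shared. The value of Rps3a1 averages a dimmer probe at -0.73 and a brighter one at -0.24. The stalk genes had a median of -0.34, Rpl5 and Rpl11 a median of -0.27, the exit tunnel genes -0.19, the head -0.21, and the body and platform -0.26.

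Rpl30, Rpl39 and Rpl10 were the core genes higher at E10.5 in MafG-intact embryos. Rpl30, which binds a kinked RNA at the face between the subunits, had a level of 3.91 in the MafG-intact E10.5 pool and 3.55 in the MafG-intact E9.5 pool, and 4.11 in the triple null pool, a second difference of 0.36. Rpl39, the small protein inside the exit tunnel, had levels of 5.98, 5.82 and 6.18 in the same order of pools, a second difference of 0.17. Rpl10, among the last proteins to join the large subunit, had levels of 6.23, 6.17 and 6.43, a second difference of 0.06. All 3 were lowest in the younger pool, on 1 probe each. Rpl39l was also higher at E10.5 (1.06 on the log2 scale, 2.09-fold), but it was 0.235 after normexp background correction and -0.0236 when its probe below background was averaged in.

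Rpl39 and Rpl10 lie on the X chromosome, as do Rpl36a and Rps4x, and the pools differed in sex. The 4 X-linked members had a median difference of 0.20 in the first comparison, -0.03 in the second and 0.17 in the third, beside 0.26, -0.21 and 0.04 for the 79 others. Rpl36a had levels of 6.66 in the triple null pool, 6.46 in the MafG-intact E10.5 pool and 6.57 in the MafG-intact E9.5 pool. Rps4x had 6.84, 6.53 and 6.85, which is the shape of the members at large. In the second comparison the 4 ranged from -0.32 for Rps4x to 0.17 for Rpl39, on both sides of the others' median, and sex and group cannot be told apart here. Without the X-linked members the median of the first comparison was 0.265.

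The third comparison, triple null E10.5 against MafG-intact E9.5, sets the triple null embryos beside embryos a day younger, and MafG and stage differ together. Ribosomal protein genes were nearly level. The median difference was 0.04 over the members (interquartile range -0.01 to 0.09), against 0.01 over 12521 genes, and 57 of 83 were higher in the triple null pool, against 51.5% of all genes, and 26 lower, against 48.5%. At least 1.5-fold apart was again Rpl39l alone (-0.79, 1.73-fold lower), 1 of 83 against 3.03% of all genes, and with the brightest probe of each gene it was 2, the second being Rpl37 (-0.71 on its bright probe). At 2-fold it was 0, against 0.783%. At least 0.32 apart on the log2 scale were 5 members, against 10.3%: 2 were higher, against 4.95%, and 3 lower, against 5.38%. For 71 of 83 members the difference was smaller than the scanner software's error. The medians were 0.06 for the large and 0.03 for the small subunit.

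A few core genes left the common level in the third comparison. Rpl30 was 1.47-fold higher in the triple null pool, with a difference of 0.55, and this value was 0.549 under quantile normalization. It rests on 1 probe, and the probes of a member lay up to 0.77 apart in this comparison. Rpl39 (0.37), Rpl35a (0.30), Rpl10 (0.26) and Rpl31 (0.25) followed, of which Rpl31 rests on probes of opposite sign. Rpl35a, a large subunit protein, had levels of 4.41 in the triple null pool, 4.10 in the MafG-intact E10.5 pool and 4.11 in the MafG-intact E9.5 pool. These average 2 probes of opposite sign in the second comparison (-0.12 and 0.10), and both probes were highest in the triple null pool. Lower in the triple null pool were Rps19 (-0.33), Rpl37 (-0.33), Rpsa (-0.26) and Rpl29 (-0.17), of which Rpl37, Rpsa and Rpl29 rest on probes that disagree in sign (4 probes from -0.42 to 0.03 for Rpl29).

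**Figure D4:**
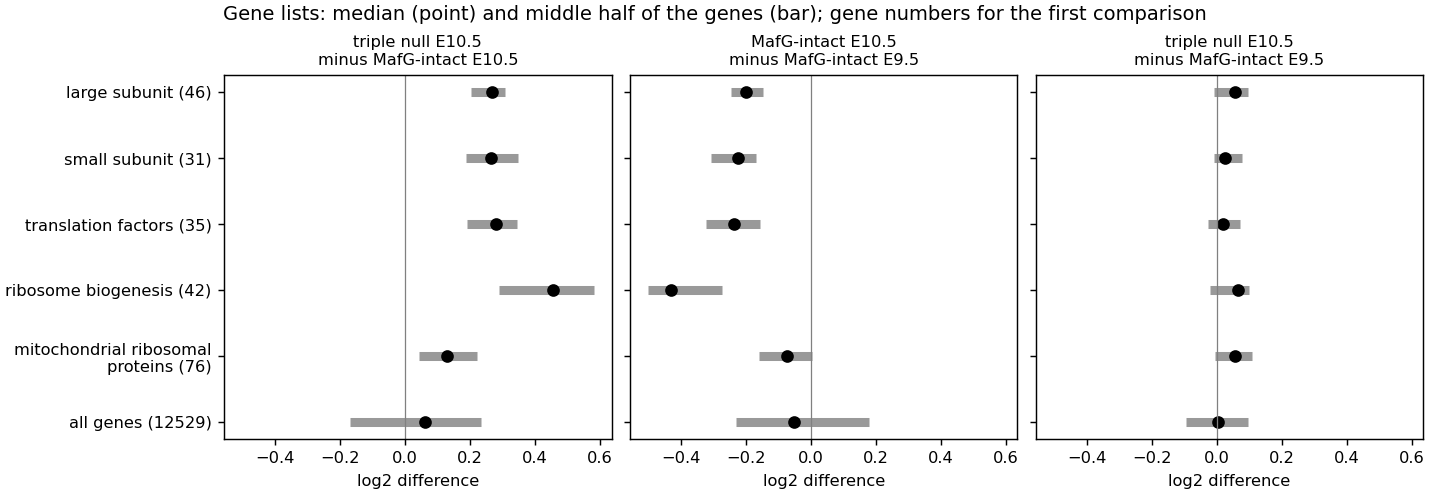
Median log2 difference (point) and interquartile range over genes (bar) of 5 gene lists and of all genes, in the 3 comparisons; gene numbers are those of the first comparison. Ribosome biogenesis genes lie farthest from 0 in the first (0.45) and second (-0.43) comparison, and all list medians lie between 0.02 and 0.07 in the third.

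The genes that work with the ribosome gave a scale for these values. Among 35 translation initiation and elongation factors the medians were 0.28, -0.24 and 0.02, 35 of 35 were higher in the triple null pool in the first comparison, and 0 were 1.5-fold apart in any. Eif4g1, the scaffold of the cap-binding complex, differed by 0.54 and Eif3b, a core of the factor that loads the small subunit, by 0.47. Eef1a1, which brings aminoacyl-tRNA and whose mRNA carries a 5′TOP, had differences of 0.38, -0.43 and -0.06. Under quantile normalization the translation factors kept a median of 0.163 in the first comparison, with 29 of 35 higher.

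Factors that build the ribosome had larger differences than its proteins. Among 42 ribosome biogenesis genes the medians were 0.45 in the first, -0.43 in the second and 0.07 in the third comparison, and 40 of 42 were higher in the triple null pool of the first comparison. By at least 1.5-fold it was 10 of them, against 4.12% of all genes, among them the nucleolar protein gene Ncl (0.63). Npm1, another nucleolar protein, differed by 0.46, Fbl, the methylase of ribosomal RNA, by 0.28 and Polr1b, a subunit of the polymerase that makes that RNA, by 0.55. Gar1, of the pseudouridine-making particles, differed by -0.72 in the second comparison. Under quantile normalization the first median was 0.371 and 40 of 42 were higher, against 0.0396 and 56 of 83 for the ribosomal proteins. The ribosomal proteins lie more at the bright end, which that scaling makes equal, so these 2 medians do not rank the lists. With differences centred among genes of like level, the first median was 0.34 for ribosome biogenesis and 0.139 for the ribosomal proteins. Nop14 was the gene lower in the triple null pool by at least 1.5-fold, on 2 probes that disagree (0.64 and -3.90).

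Mitochondrial ribosomal proteins, which make up a separate ribosome, had a smaller median than the cytosolic ones in the first comparison. Over 76 genes the medians were 0.13, -0.07 and 0.06, and 67 of 76 were higher in triple null embryos of the first comparison. Under quantile normalization the first median was 0.084, beside 0.0396 for the cytosolic ribosomal protein genes. These lie at brighter levels, so the lists cannot be ranked by that scaling. With differences centred among genes of like level, the first median was 0.04 for the mitochondrial and 0.139 for the cytosolic genes. Mrps18b (0.62) was the 1 gene at least 1.5-fold apart there under 75th percentile scaling.

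Regulators gave mixed values. Over 20 genes of the Myc and mTOR axis the medians were 0.17, -0.14 and -0.06. Myc had a level of 0.95 in the triple null pool, 0.41 in the MafG-intact E10.5 pool and 1.27 in the MafG-intact E9.5 pool, and Mycn had 1.35, 0.88 and 1.49. Both were lowest on the MafG-intact E10.5 array, as were 50.2% of the 12429 genes above background on all 3 arrays. Mycl was highest there, with levels of -0.07, 0.18 and 0.13. Mxd3, an antagonist of Myc, was also highest there, with levels of -1.35, -0.44 and -1.29. Whether these genes bear on the ribosomal protein signal was not tested. Eif4ebp1, the brake on translation that mTOR releases, had levels of -0.12, -0.66 and -0.19. Over 13 genes of the p53 response, which free ribosomal proteins can switch on, the medians were -0.07, 0.03 and -0.04. Cdkn1a, the cell cycle inhibitor, had a level of -2.02 in the triple null pool, -1.53 in the MafG-intact E10.5 pool and -2.41 in the MafG-intact E9.5 pool, and Mdm2 differed by 0.14 in the first comparison.

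Cell type markers differed between the pools in each comparison. Between the triple null and the MafG-intact E10.5 pool the median difference was -2.25 over 8 neuronal, -2.69 over 2 macrophage, -1.86 over 4 platelet and -1.07 over 4 hepatoblast markers, and 1.01 over 5 cardiac and 1.37 over 5 tail bud and somite markers. It was -1.54 over 3 skeletal muscle markers (Myf5 was above background on no array), -1.27 over 4 yolk sac endoderm markers and 0.31 over 2 trophoblast markers (Tpbpa and Gcm1 were above background on no array). Between the MafG-intact E10.5 and E9.5 pools it was 2.36 over 8 neuronal, 2.48 over 3 macrophage, 1.69 over 5 platelet, -0.51 over 5 cardiac, -1.16 over 4 yolk sac endoderm and -1.46 over 5 tail bud and somite markers. Between the triple null and the MafG-intact E9.5 pool it was -1.87 over 4 yolk sac endoderm, -0.87 over 4 platelet, -0.39 over 8 erythroid, 0.49 over 5 cardiac and 0.02 over 8 neuronal markers. The summed neuronal markers were highest in the MafG-intact E10.5 pool, in which most ribosomal protein levels were lowest. So were the summed erythroid, macrophage, platelet, skeletal muscle and hepatoblast markers. The yolk sac endoderm sum, 4.29, was also highest there, but Afp, at a level of 4.28, made up nearly all of it. Amn, Apoa1 and Ttr were lower there than at E9.5 (-2.58, -1.89 and -0.43), and the median of that list against E9.5 was -1.16. Afp is also in the hepatoblast list, whose sum was 4.56 there. The cardiac, tail bud and somite, and trophoblast sums were lowest there. The trophoblast sum rests mostly on Hand1, with a level of 0.13 there, beside -2.55 for Prl3b1, so it is no clear measure of trophoblast. The part of any of these cell types in the ribosomal protein result was not tested.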

How the data were processed

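RNA was measured on 1-colour Agilent arrays, 1 for each of 3 pools of 3 embryos. Per the file headers, the authors read the scans with Agilent Feature Extraction 9.5.3.1, protocol GE1-v5_95_Feb07, array design 014868, and the deposited signal is an intensity with background subtracted, not on a log scale. The value table the authors deposited holds the same intensity within 0.497%. Per the labels, RNA was amplified and labelled with Cy3. The 3 arrays shared 1 slide and 1 scan time.

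Over 43379 non-control spots, the 75th percentile of each array was subtracted from log2 intensity. Spots of a probe were averaged, then probes of a gene above background on at least 1 array. Symbols came through accessions and a table of GRCm38.p6 (22950 probes with 1 symbol). A gene counted in a comparison when above background on both arrays. There are no replicates, so no p-value is given; medians and counts at 1.5-fold describe the arrays. The members, lists and rules were chosen with earlier results of these data known. Named were the 5 highest and 5 lowest members of each comparison, paralogues, X-linked and stalk genes, members with opposed probes and the extremes of other lists; other members are given to describe a role. Some genes are not reported here. Markers of other cell types came from fixed lists. Alternatives were normexp (on the median spot intensity, since the mean was not used here), quantile normalization, other scalings, filters, probe choices and thresholds. Steps were tested on simulated data. The tools were limma 3.58.1 under R 4.3.3, and numpy 2.4.6, pandas 2.3.3 and matplotlib 3.10.9 under Python 3.11.15.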

Additional observations from a re-analysis of the deposited data

How the results depend on the processing

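The members' median in the first comparison ranged from 0.251 (normexp) to 0.284 (spike-in probes) outside quantile normalization (0.0396) and centring by level (0.139), and in the second it was -0.039 and -0.106 under those scalings. The median difference between large and small subunit moved by less than the spot error under every alternative run. The 1 member at least 1.5-fold apart, Rpl39l, decides that count: it was 0 in all 3 comparisons under normexp, with core genes alone and without Rpl37, Rpsa, Rpl31 and Rpl39l, 0 in the second without a filter on dim probes, 0 in the third at 2-fold, 2 in the third with the brightest probe, and 18, 16 and 5 at a log2 difference of 0.32. Rpl39l turned to -0.0236 in the second comparison without the filter. Other values of named genes moved by less than the spot error (814 values) or by more in the same direction or with no call (118). Part of the 814 could not move. Leaving out members does not change the values of the others, and the choice among probes does not change a gene with 1 probe. The causes were not tested. Spike-in scaling and the removal of the members named were chosen after seeing the data. No paired analysis was possible because each group has 1 array. Leaving out an array would leave no group, and the slide could not serve as a block because all arrays shared it. Signal over background limits Rpl39l, and 2 of 121 member probes were not above background on all 3 arrays.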
